A study of Mus musculus with 31 samples.

Results

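Signal assigned to the transcript of Pth, the gene for the precursor of parathyroid hormone, was followed in a mouse T cell clone treated with the neuropeptide neuromedin U (NmU). Probe sets were taken where the probe annotation paired them with Pth as their only symbol. There was 1 such probe set (102078_at) among the 12422 of the array that were not controls, so that Pth was 1 of 8251 genes with a probe set of their own. It was also 1 of the 7930 probe sets that passed a filter on dim signal. The sequences of its probes were not at hand, so their match to the Pth transcript, or to others, was not checked. Pth below means the signal of this probe set, named by its annotation alone. The values of all 8 groups, the increase at 12 h with its small spread, and the correlation of group means with other probe sets are the values that Pth and the probe sets most like it were selected on. They are therefore given as a description, with no test.

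The cells were D10.G4.1, a mouse line that is a single type 2 helper T cell (Th2) clone. Cells of this type make interleukins 4, 5 and 13. They received NmU, or phosphate-buffered saline (PBS) as the vehicle, and total RNA was taken 0.8, 3, 6 and 12 h later. The groups were NmU and PBS at each time, with 4 arrays each except NmU at 3 h, which had 3, for 31 arrays in all. The labels give no dose of NmU. Nothing in them says that replicates came from separate cultures, so a p-value here covers only the variation among these arrays, which may be technical, and the small number of arrays sets the precision.

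Parathyroid hormone is a small secreted peptide. The parathyroid glands release it when the calcium-sensing receptor reports low blood calcium, and it acts on bone and kidney through the receptor Pth1r, which couples to the G proteins of the cyclic AMP and phospholipase C pathways. The prohormone is cut by furin-type convertases on its way out of the cell. Transcription of the gene depends in the parathyroid on factors such as Gcm2 and Gata3, is lowered by the vitamin D receptor, and the stability of the mRNA is set by binding proteins at its end. T cells are known mainly as targets of the hormone, not as a source of it.

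The sequences before 2 transcription starts are shown: that of Pth itself, and that of Csn1s1, the one gene that stayed among the probe sets most like Pth whichever array was left out. They are the 250 bases before the start in RefSeq, build GRCm38.p6, read 5′ to 3′ on the strand of the gene. The first lies at chr7:113388574-113388823 on the minus strand and the second at chr5:87665958-87666207 on the plus strand. Capitals mark TGACNTCA and AATAAAA in the first and TTCNNNGAA in the second.
Pth: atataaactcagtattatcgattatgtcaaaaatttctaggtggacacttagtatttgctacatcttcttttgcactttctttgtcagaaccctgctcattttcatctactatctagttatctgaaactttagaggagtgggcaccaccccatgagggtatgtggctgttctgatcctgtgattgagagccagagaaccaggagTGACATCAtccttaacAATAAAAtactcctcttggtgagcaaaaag
Csn1s1: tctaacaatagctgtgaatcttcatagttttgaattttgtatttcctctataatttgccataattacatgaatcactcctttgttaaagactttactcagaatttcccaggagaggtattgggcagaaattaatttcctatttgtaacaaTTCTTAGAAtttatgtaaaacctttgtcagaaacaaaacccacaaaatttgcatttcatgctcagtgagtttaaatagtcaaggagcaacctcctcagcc

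Motifs were looked for on both strands in windows of 300 bases, 250 before and 50 after the start, in 1 promoter each of 27025 genes. TGACGTCA, the full cyclic AMP response element, was in 1.88% of all windows and not in that of Pth. TGACNTCA, the same letters with any base at the fifth place and so containing every TGACGTCA, was in 8.97% of windows and stood at -46 to -39 from the start of Pth. AATAAAA, at -30 to -24, was in 8.59% of windows. TGACNTCA and AATAAAA were chosen after the Pth sequence had been read. TGACTCA, the AP-1 element, was in 5.17% of windows, and GGAAA, the core bound by NFAT factors, was in 61.3%, and neither was in that of Pth. TTCNNNGAA, the STAT element, which reads the same on both strands, was in 8.47% of windows, was not in that of Pth, and stood at -100 to -92 from the start of Csn1s1. A match is a string of letters and not a measured site.

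The Pth probe set read well above the floor on dim signal on every array, and its values were highest in NmU at 12 h. At that time the arrays read 1366.2, 1475.5, 1409.8 and 1546.2 in NmU-treated cells, against 453.8, 494.2, 469.0 and 517.5 in PBS-treated cells. The lowest NmU array thus lay well above the highest PBS array, and each group kept within a narrow band. The means were 1449 ± 78.6 in NmU and 483.6 ± 28.1 in PBS (SD, n = 4 each). The log2 difference, NmU minus PBS, was 1.58 ± 0.12 (SE), which is 3.00-fold. Every NmU array was above every PBS array for 3.67% of the 7930 probe sets at this time. Nothing is read from that share for Pth, which was chosen for this contrast.

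**Figure D1:**
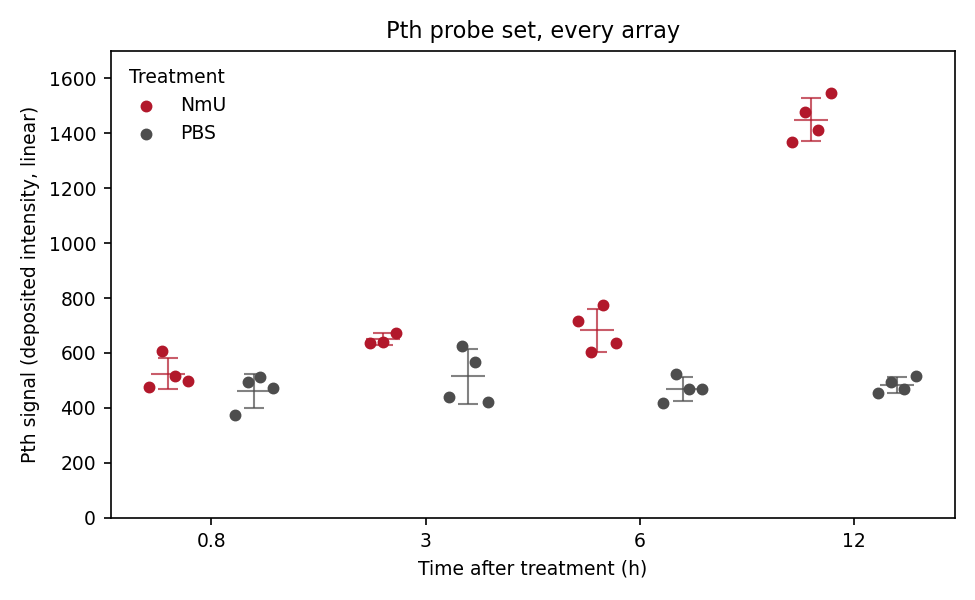
Signal of the Pth probe set (deposited intensity, linear axis) on each of the 31 arrays, against time after treatment in hours; points are arrays and bars are the group mean ± SD, with NmU left of PBS. The 4 NmU arrays at 12 h lie between 1366.2 and 1546.2, and the other 27 arrays lie between 372.5 and 773.9.

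The earlier times gave smaller differences. At 0.8 h the arrays read 477.9, 605.5, 516.0 and 498.1 in NmU and 372.5, 492.8, 512.8 and 471.1 in PBS. These groups overlapped, and the log2 difference was 0.19 ± 0.12 (SE). It was 0.09 without replicate 1 of PBS at 0.8 h and 0.12 without replicate 2 of NmU at 0.8 h, so its size rests on single arrays. Every NmU array was above every PBS array for 2.56% of probe sets at that time.

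At 3 h the 3 NmU arrays read 635.7, 638.3 and 674.2, and the PBS arrays 440.5, 626.2, 568.0 and 423.3. The groups did not overlap, but the highest PBS array came close to the lowest NmU array. The log2 difference was 0.36 ± 0.13 (SE), with 8.12% of probe sets having every NmU array above every PBS array. Leaving out replicate 4 of PBS at 3 h, the array least like its group (mean r of 0.956 with the others), the difference was 0.27.

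At 6 h the arrays read 714.9, 603.3, 773.9 and 636.1 in NmU and 417.1, 522.2, 467.4 and 467.2 in PBS. All NmU arrays were again above all PBS arrays, as for 6.54% of probe sets. The log2 difference was 0.54 ± 0.12 (SE), or 1.45-fold. It was 0.57 without replicate 4 of NmU at 6 h, an array on which Fos, Nr4a1 and other genes stood apart from the rest of the group.

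On the log2 scale the difference at 0.8, 3 and 6 h was 11.8%, 22.4% and 34.1% of that at 12 h, the first with the dependence on single arrays given above. Ranked by the signed difference, from the most raised in NmU down, Pth stood at place 906 of 7930 at 0.8 h, 1009 at 3 h, 394 at 6 h and 9 at 12 h, so that 0.113% of probe sets were raised as much or more at 12 h. The probe sets ahead of it at 12 h were those of the cytokine Il5, the chemokine Ccl3, a second probe set of the cytokine Il4, the chemokines Ccl4 and Xcl1, Ift46, a probe set with no symbol, and the GTP-binding protein Gem. They are named because the place of Pth depends on them, after their values were seen. The SE of the Pth difference was 0.12, the smallest of these 9, whose other SEs ran between 0.19 and 0.49.

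In order of mean signal the groups ran NmU at 12, 6, 3 and 0.8 h, then PBS at 3, 12, 6 and 0.8 h. Between neighbours in that order the arrays were apart for NmU at 12 h over NmU at 6 h and for NmU at 3 h over NmU at 0.8 h. Each of the other neighbouring pairs overlapped. Among NmU-treated cells the mean was 524 ± 56.3 at 0.8 h, 649 ± 21.5 at 3 h (n = 3), 682 ± 77.1 at 6 h and 1449 ± 78.6 at 12 h (SD, n = 4 unless given). The log2 step was 0.31 ± 0.13 (SE) between 0.8 and 3 h, 0.06 ± 0.13 between 3 and 6 h, and 1.09 ± 0.12, or 2.13-fold, between 6 and 12 h. The step of the NmU difference itself between 6 and 12 h was 1.04 ± 0.17.

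The PBS-treated cells held a flat level. Their means were 462.3 ± 62.2 at 0.8 h, 514.5 ± 98.5 at 3 h, 468.5 ± 42.9 at 6 h and 483.6 ± 28.1 at 12 h (SD, n = 4 each). The lowest, median and highest of the 16 PBS arrays were 372.5, 470.1 and 626.2. On these arrays the Pth probe set was brighter than between 86.3% and 92.1% of the probe sets that were not controls. The 12 h group lay 0.07 ± 0.12 (SE) above the 0.8 h group on the log2 scale. The PBS mean at 12 h was 83.4 times the floor of 5.8 to which dim values were raised, so the floor touched no Pth value.

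The spread of Pth between arrays was small at 12 h and in NmU at 3 h. Its coefficient of variation was 5.42% in NmU and 5.80% in PBS at 12 h, against medians of 13.2% and 15.2% over the probe sets past the filter. It was 3.31% in NmU at 3 h against a median of 11.8%, 11.3% in NmU and 9.16% in PBS at 6 h, and 10.7% in NmU and 13.5% in PBS at 0.8 h. The widest group was PBS at 3 h, with 19.2% against a median of 17.7%. The medians are over kept probe sets of any brightness, most of them dimmer than Pth, and no comparison at like signal was made.

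Over the 7930 probe sets, array pairs within a group correlated at between 0.951 and 0.982, and 0 pairs of arrays were identical. Of the T cell list 11 of 12 genes had a probe set and 9 passed the filter. At 12 h Cd3d averaged 1485 in NmU and 1281 in PBS, Cd3e 679 in NmU and 748 in PBS, and Gata3 2433 in NmU and 2253 in PBS. Cd2 was dim there, at 18.7 in NmU and 16.9 in PBS, and Cd5 (9.22 in NmU, 6.35 in PBS) and Thy1 (5.75 in NmU, 7.35 in PBS) were below the filter. The T cell list summed to between 8203.2 and 9827.7 in NmU at 12 h, against 6610.3 to 8033.6 in PBS, with Il4, which NmU raises, among its genes. The part of this difference in the Pth values was not tested. Of the parathyroid list 2 of 5 genes had a probe set. Chromogranin A (Chga) averaged 35.7 in NmU and 50.5 in PBS at 12 h, Epcam 1.88 in NmU and 4.12 in PBS, and their sum ran between 22.4 and 62.7 in NmU and between 38.7 and 71.6 in PBS. Casr and Gcm2 were not analysed here. The myeloid sum was 354.7 to 455.0 in NmU and 332.3 to 475.9 in PBS at 12 h, with 4 of 7 genes past the filter. Mpeg1 gave most of it, at 275 in NmU and 236 in PBS, Cd14 averaged 69.0 in NmU and 89.0 in PBS, and the means of Lyz2, Adgre1 and Itgam were under the floor in both groups. The B cell, fibroblast and erythroid sums, over 5 of 6, 5 of 5 and 3 of 6 genes, overlapped between NmU and PBS at 12 h as well. In RNA from whole cultures, more cells with a transcript and more RNA per cell cannot be told apart.

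The probe sets most like Pth were those whose mean log2 signal in the 8 groups correlated with its own at a Pearson r of at least 0.9. There were 22 of 7929 (0.277%), of which 18 carried 1 symbol, 2 several MHC class I symbols and 2 no symbol. The probe sets at -0.9 or less numbered 23. A kept probe set had a median of 14 such partners, and 68.0% had fewer than Pth. With 8 points of which 1 stood far from the rest, a high r asked mainly for a high value in NmU at 12 h, and all 22 had their highest mean there.

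The 10 named genes with the highest r were Akap1 (0.97), H2-DMa (0.95), Pter (0.94), Pdzk1ip1 (0.93), Sepsecs (0.93), Anxa1 (0.93), Xcl1 (0.92), Sgcb (0.92), Csn1s1 (0.92) and Ggh (0.91). Just inside the limit lay Tmsb4x and Nckap1, both at 0.901, and just outside lay Inpp5j and Grpel2, both at 0.897. Akap1 encodes an anchor for protein kinase A at mitochondria and H2-DMa a chain of the complex that loads peptides on MHC class II. Pdzk1ip1 is a small membrane protein, Sepsecs makes selenocysteine on its tRNA, and Anxa1 binds phospholipids in the presence of calcium. Xcl1 is the chemokine lymphotactin, Sgcb is a sarcoglycan of the dystrophin complex, Csn1s1 is a casein of milk, and Ggh cleaves folate polyglutamates. Probe set identifiers of Anxa1 and H2-DMa end in _f_at, which on arrays of this design marks probes that similar transcripts may share.

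The size of the change was mostly far smaller than that of Pth. The log2 difference of the 22 at 12 h, NmU minus PBS, ran between 0.29 and 1.67, with a median of 0.53, against a median of -0.02 over all 7930. It was at least 1 in 4 of them, as in 0.441% of all probe sets, and larger than that of Pth in Xcl1 and in 1 probe set with no symbol. In 15 of the 22 every NmU array at 12 h lay above every PBS array, beside the 3.67% of all probe sets given above; the way they were chosen favours this, and nothing is read from it.

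**Figure D2:**
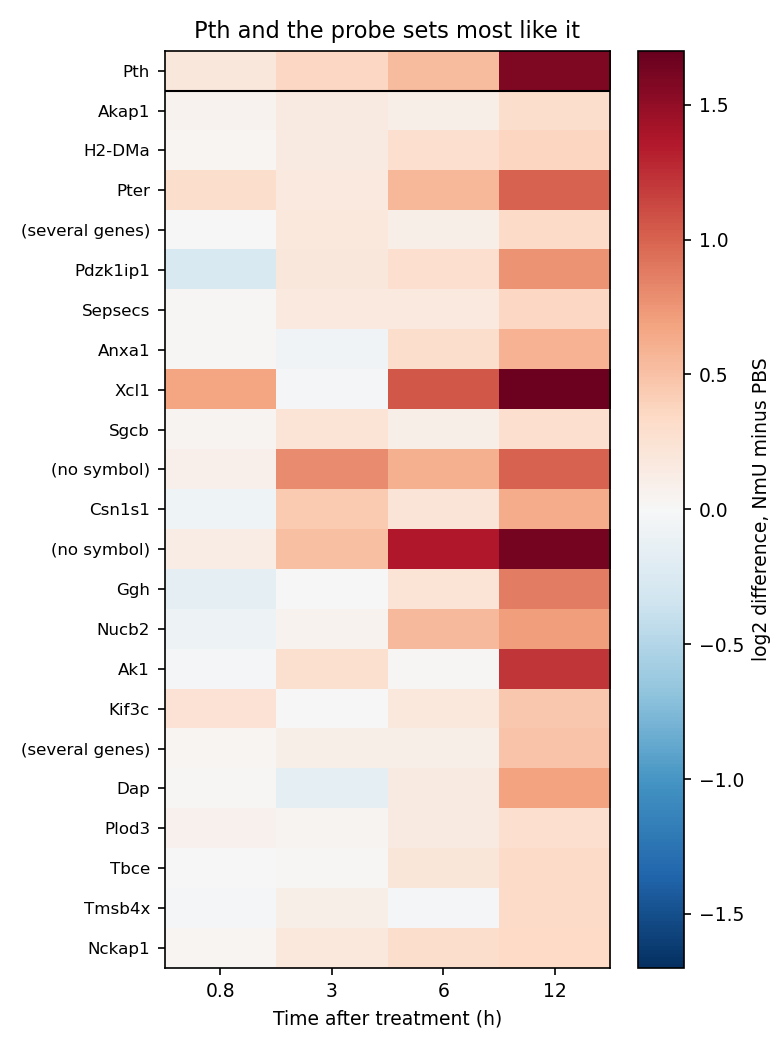
Log2 difference, NmU minus PBS, at 0.8, 3, 6 and 12 h (columns) for Pth and the 22 probe sets with r of at least 0.9 (rows, highest r at the top); red is higher in NmU and blue lower. The 12 h column is the darkest in most rows, and Pth at 1.58 is exceeded there by Xcl1 at 1.67 and by a probe set with no symbol at 1.63.

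Akap1 had the highest r with a small change. It read 86.6, 123.3, 105.9 and 96.2 in NmU at 12 h and 90.2, 77.9, 89.5 and 76.0 in PBS, a log2 difference of 0.30 ± 0.14 (SE). The 2 groups overlapped, since the lowest NmU array was below 2 PBS arrays. H2-DMa read 40.8, 20.2, 12.6 and 21.0 in NmU and 17.5, 19.7, 18.1 and 12.7 in PBS, a difference of 0.37. Its groups overlapped as well, and 1 NmU array lay far above the other 3.

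Csn1s1 kept its groups well apart at 12 h. It read 2875.2, 3116.0, 2979.2 and 3121.6 in NmU and 2075.1, 1992.9, 1934.3 and 1799.2 in PBS, a log2 difference of 0.63 ± 0.09 (SE). Unlike Pth, its NmU signal was already high at 3 h, at 2684.6, 2345.8 and 2351.4, against 1724.3, 1789.3, 1818.7 and 1901.7 in PBS. At 6 h its NmU arrays read 2277.9, 2305.9, 2378.5 and 1770.4, so that replicate 4 fell among the PBS arrays of 1721.2, 1973.2, 1729.3 and 2045.8.

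Pdzk1ip1 read 110.2, 114.2, 129.3 and 140.2 in NmU at 12 h and 81.2, 75.2, 70.5 and 63.5 in PBS, a log2 difference of 0.77 ± 0.14 (SE). Xcl1 read 50.1, 43.1, 45.3 and 42.2 in NmU and 20, 20.8, 6.0 and 16.2 in PBS, a difference of 1.67 ± 0.49. Xcl1 was apart at 6 h too, at 35.9, 25.1, 27.0 and 30.5 in NmU and 6.7, 17.5, 17.4 and 19.4 in PBS. Both genes kept the groups apart at 12 h, but Xcl1 did so at a signal not far above the floor, with an SE several times that of Pth. Anxa1 read 108.3, 94.2, 129.4 and 102.9 in NmU and 75.5, 77.3, 62.9 and 73.2 in PBS, and its groups were apart too.

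Ak1, an adenylate kinase outside the first 10 by r and named after its values were seen, differed at 12 h and hardly before. Its mean was 67.3 ± 14.7, 78.9 ± 25.6 (n = 3) and 76.4 ± 12.3 in NmU at 0.8, 3 and 6 h, and 199.2 ± 9.47 at 12 h (SD, n = 4 unless given). In PBS at 12 h it was 86.2 ± 10.1 (SD, n = 4). The log2 difference at 12 h was 1.22 ± 0.25 (SE), and at 6 h 0.02 ± 0.25.

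**Figure D3:**
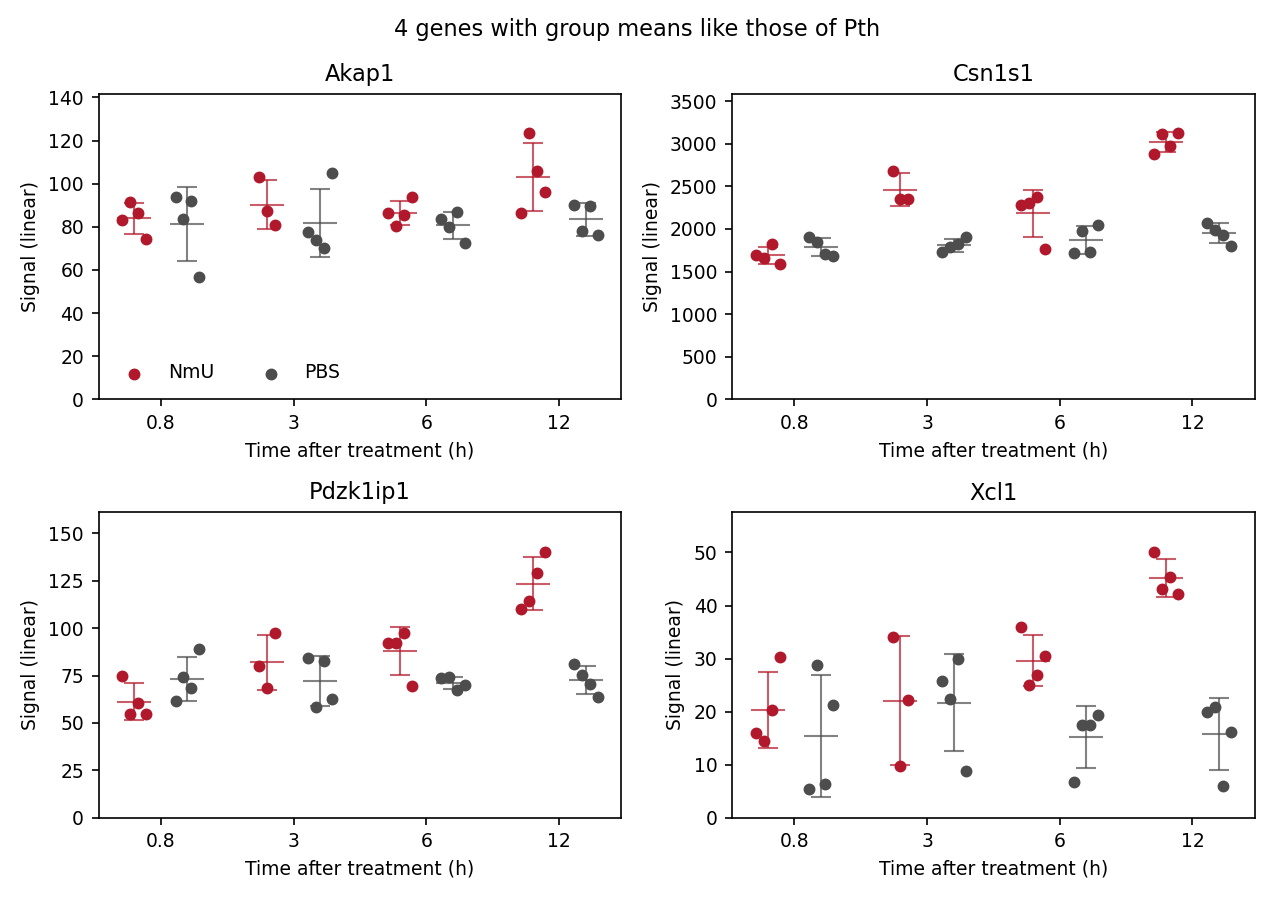
Signal (linear axes, each panel on its own scale) of Akap1, Csn1s1, Pdzk1ip1 and Xcl1 on every array against time in hours; points are arrays, bars the group mean ± SD, NmU left of PBS. NmU and PBS arrays overlap at 12 h for Akap1 and are apart for the other 3 genes, and the groups are also apart for Csn1s1 at 3 h and for Xcl1 at 6 h.

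The likeness rested largely on NmU at 12 h. Over the 7 other groups the r of the 22 ran between 0.12 and 0.94, with a median of 0.71, against -0.06 over all kept probe sets. The 22 were chosen over groups that include these 7, which favours a high r here, and nothing is read from that contrast. The r over the 7 groups stayed at 0.9 or more for 3 of the 22: Sepsecs (0.94), Nckap1 (0.94) and H2-DMa (0.93). H2-DMa passed the filter only through NmU at 12 h, and its means in the other 7 groups, 15.6 to 18.9, were all under the filter signal of 20.2, so its value says little. Dap (0.12), Ak1 (0.19) and Ggh (0.37) had the lowest values, that is, little in common with Pth before the last time. With group means of linear signal 27 probe sets reached 0.9, of which 19 were shared, 86.4% of the log2 list and 70.4% of the linear one. With ranks 21 did, of which 4 were shared with the 22. Only Csn1s1 stayed at the limit in each of the 31 fits that left out 1 array. Its r was below the limit in other settings, at 0.79 over the 7 groups and 0.67 with ranks.

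**Figure D4:**
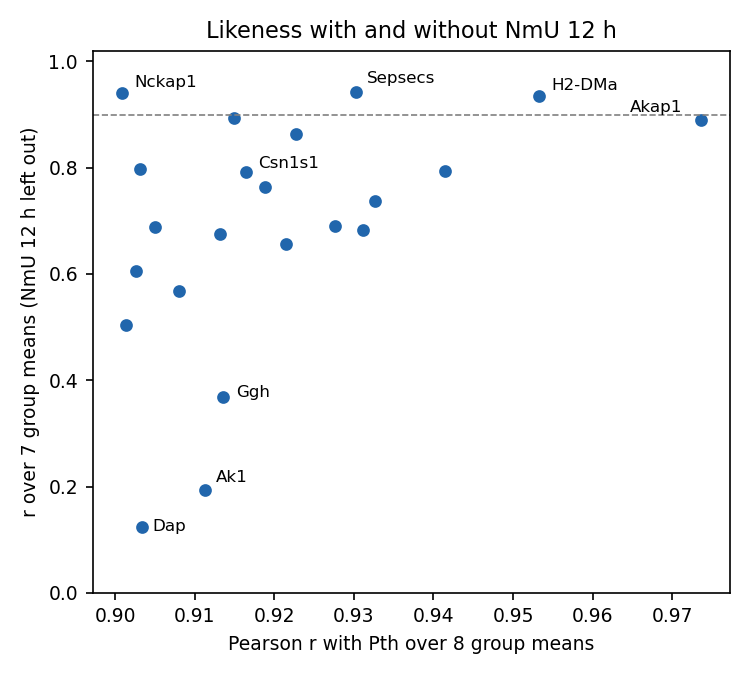
Pearson r with Pth over the 8 group means (horizontal) and over the 7 groups other than NmU at 12 h (vertical) for the 22 probe sets; the dashed line is at 0.9. Sepsecs, Nckap1 and H2-DMa lie above the line, Akap1 just below it, and Dap, Ak1 and Ggh at the bottom.

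Array by array within groups, these probe sets correlated with Pth in either direction. The correlation of the deviations from the group means over the 31 arrays ran between -0.49 for Ak1 and 0.54 for Anxa1, with a median of 0.19, against 0.03 over all kept probe sets. It was above 0 for 17 of the 22 and for 54.0% of all. For Akap1 and H2-DMa, which had the highest r over the 8 groups, it was -0.27 and -0.22. The arrays share their scaling and RNA, and these values are a description.

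Of the 18 named genes, 15 had a promoter in the RefSeq table. TGACNTCA, which stands before Pth, was in 2 of the 15 (Plod3 and Tmsb4x), AATAAAA in 3 and GGAAA in 9. TGACTCA was in that of Akap1 alone (6.67% against 5.17%) and TTCNNNGAA in that of Csn1s1 alone (6.67% against 8.47%). TGACNTCA and AATAAAA were chosen from the Pth sequence, and 15 promoters are few, so nothing is read from these counts.

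Il5, the Th2 cytokine with the largest difference at 12 h, had an r of 0.87 with Pth and stood at place 43. Its mean was 68.8 ± 11.3, 226 ± 142 (n = 3), 302.5 ± 71.7 and 391.5 ± 58.0 in NmU at 0.8, 3, 6 and 12 h, and 63.8 ± 6.99, 60.3 ± 6.78, 52.0 ± 7.72 and 56.0 ± 14.2 in PBS (SD, n = 4 unless given). The mean of Il5 in NmU was thus well above that in PBS from 3 h on, though its 3 NmU arrays at 3 h varied widely. Pth in NmU was still 1.45-fold of PBS at 6 h.

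The lists of the parathyroid hormone pathway were tested in the fit over all 7930 probe sets, which called 0.845% of them at 0.8 h, 10.2% at 3 h, 4.88% at 6 h and 1.26% at 12 h (limma, adjusted p under 0.05). By direction, 0.782%, 4.44%, 2.85% and 0.858% were called higher in NmU at these times, and 0.0631%, 5.73%, 2.03% and 0.404% lower. Counts of list genes at an unadjusted p under 0.05 are given below without the share of all probe sets at that limit, so nothing is read from them. Of the 5 ligands and receptors, Pth and Pth1r had a probe set. Pth1r, the receptor of the hormone, was below the filter, with a mean of 2.55 ± 0.74 in NmU and 3.45 ± 2.20 in PBS at 12 h (SD, n = 4 each), both under the floor. Its highest group mean was 8.0, in NmU at 3 h.

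Of the genes that control Pth transcription or its mRNA 6 of 15 were tested. By limma 2 rose at 3 h and 0 were called at the other times, where 0, 1 and 1 had an unadjusted p under 0.05 at 0.8, 6 and 12 h. The median log2 difference of the 6 was 0.31 at 3 h and 0.08 at 12 h, against -0.03 and -0.02 over all probe sets. Rxra, the partner of the vitamin D receptor, averaged 221 ± 16.2 in NmU (n = 3) and 106 ± 17.3 in PBS (SD, n = 4) at 3 h, a log2 difference of 1.07 ± 0.23 (SE, limma adjusted p = 0.00273). Gata3, which drives both the parathyroid and the Th2 programme, averaged 2566 ± 278 in NmU and 1900 ± 116 in PBS there, a difference of 0.43 ± 0.11 (limma adjusted p = 0.0112). Gata3 lost its call without replicate 1 or 3 of NmU at 3 h, with an adjusted p of up to 0.0776 by limma, and had 0.144 with only the 2 groups fitted. At 12 h, where Pth was highest, Gata3 differed by 0.10 ± 0.10 (adjusted p = 0.763), Rxra by 0.51 ± 0.21 (0.352), Vdr by 0.08 ± 0.31 (0.954) and the mRNA-binding protein Hnrnpd by -0.10 ± 0.12 (0.823). Cdc73 and Men1, whose loss causes parathyroid tumours, differed by 0.08 ± 0.17 and -0.58 ± 0.50.

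Of the peptide hormone processing genes 5 of 12 were tested, and 1 rose at 3, 6 and 12 h. Furin, the convertase that removes propeptides in the Golgi, averaged 683 ± 53.1 in NmU (n = 3) and 320.5 ± 36.4 in PBS at 3 h, and 421.8 ± 45.0 in NmU and 307 ± 15.3 in PBS at 12 h (SD, n = 4 unless given). Its log2 difference was 0.30 at 0.8 h (adjusted p = 0.184), 1.10 at 3 h (1.44e-08), 0.93 at 6 h (1.63e-07) and 0.45 ± 0.09 (SE) at 12 h (0.00569, or 0.151 with only the 2 groups fitted). The rise of Furin was thus largest at 3 h, when that of Pth was 0.36. Of the convertases Pcsk5, Pcsk6 and Pcsk7 and of the granule protein Chga none was called at any time. Pcsk6 had 31.9 in NmU and 24.3 in PBS at 12 h (log2 difference 0.53 ± 0.39). Carboxypeptidase E (Cpe), which trims peptides in granules, was below the filter, at 1.5 in NmU and 1.92 in PBS at 12 h.

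Of the receptor signalling genes 17 of 25 were tested. At 0.8 h 1 rose, at 3 h 1 rose and 2 fell, at 6 h 2 fell, and at 12 h 0 were called, where 2 had an unadjusted p under 0.05. Crem, a transcription factor of the cyclic AMP response, rose by 0.71 ± 0.11 (SE) at 0.8 h and 1.34 ± 0.12 at 3 h (limma adjusted p = 2.26e-04 and 1.44e-08). It was back at 192 ± 17.0 in NmU and 197 ± 23.4 in PBS at 12 h (SD, n = 4 each). Prkacb, a catalytic subunit of protein kinase A, fell by 0.70 at 3 h (6.24e-05) and 0.52 at 6 h (0.00191, or 0.0601 with only the 2 groups fitted). Slc9a3r1, the scaffold that binds the tail of Pth1r, fell by 0.77 at 3 h (5.62e-05) and 0.48 at 6 h (0.00856). Gnas, the stimulatory G protein subunit, averaged 5127 in NmU and 5093 in PBS at 12 h (log2 difference 0.01 ± 0.12).

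Of the genes that the hormone is known to raise or lower in bone and kidney 7 of 17 were tested. At 0.8 and 3 h 3 of them rose, and at 6 and 12 h 1 did. Fos at 3 h differed by 1.18 (limma adjusted p = 0.123, or 0.0143 with only the 2 groups fitted and 7.63e-05 without replicate 4 of NmU at 6 h, which enters through the shared spread). Fos rose by 4.15 and the orphan receptor Nr4a1 by 2.43 on the log2 scale at 0.8 h (limma adjusted p = 6.03e-07 and 6.91e-06). Nr4a1 rose by 1.46 and Tnfsf11, the osteoclast factor RANKL, by 1.09 at 3 h (limma adjusted p = 0.00382 for Nr4a1 and 0.00126 for Tnfsf11, or 0.126 for Tnfsf11 with only the 2 groups fitted). Il6 rose at each time, by 1.40, 1.35, 1.09 and 0.66 ± 0.12 (SE) at 0.8, 3, 6 and 12 h. At 12 h it averaged 1591 in NmU and 1016 in PBS (limma adjusted p = 0.00282, or 0.0732 with only the 2 groups fitted). These genes also answer to T cell stimuli, and whether the hormone acted on the cells was not tested.

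**Figure D5:**
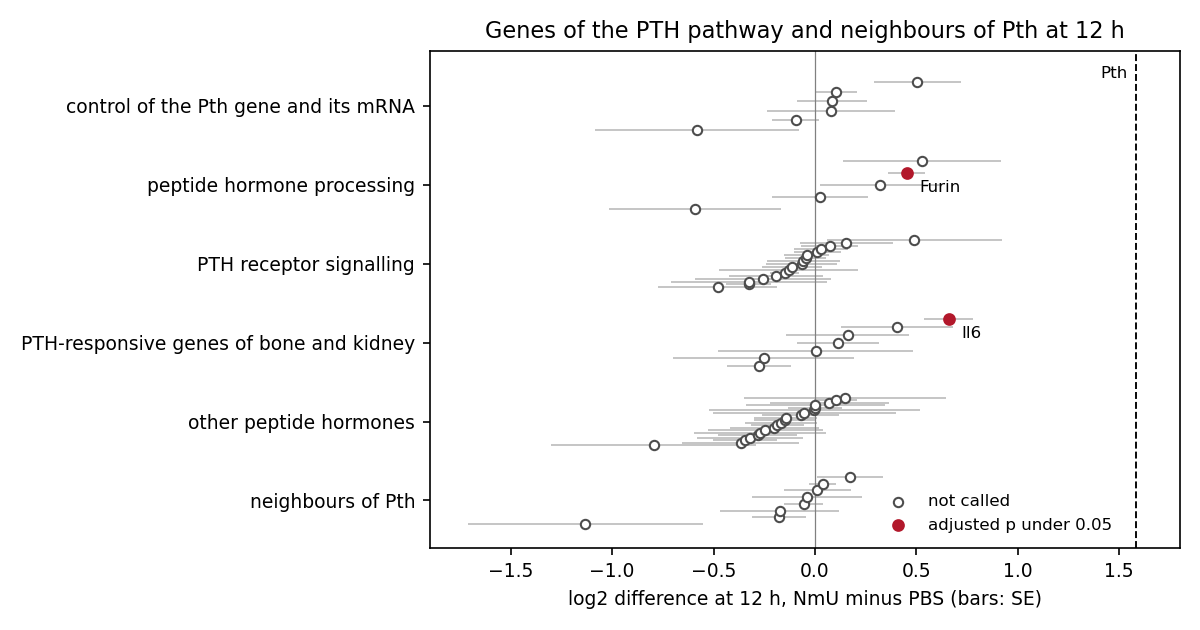
Log2 difference at 12 h, NmU minus PBS (horizontal, bars ± SE), of each tested gene of the pathway lists, of the other peptide hormones and of the neighbours of Pth; filled points have a limma adjusted p under 0.05 and the dashed line marks Pth. Furin at 0.45 and Il6 at 0.66 are the filled points, and every point lies left of the Pth line at 1.58.

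The other peptide hormone genes gave no call in the fit over all 31 arrays. Of 45, 36 had a probe set and 20 were tested, and limma called 0 at each time, with 0, 2, 3 and 1 at an unadjusted p under 0.05 at 0.8, 3, 6 and 12 h. The share of all probe sets at that unadjusted limit is not given, so nothing is read from these counts. Their median log2 difference at 12 h was -0.16, against -0.02 over all probe sets. Penk, the gene for the enkephalin precursor, read 7335 ± 646 in NmU and 6825 ± 446 in PBS at 12 h (SD, n = 4 each). Npy differed by 0.78 at 6 h (adjusted p = 0.130), Lep by -0.81 at 3 h (0.0952, or 0.0478 with only the 2 groups fitted) and Ppy, the pancreatic polypeptide gene, by -0.35 at 12 h (0.405). Igf2 differed by -0.38 at 3 h (0.257, or 0.0336 with the replicate block and 0.0227 without replicate 4 of PBS at 3 h). The probe set identifiers of Penk and Ppy, like that of Cpe above, end in _f_at, so similar transcripts may share their probes.

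The measured genes nearest to Pth on chromosome 7 were taken from the RefSeq table (GRCm38.p6). The 5 nearest genes with a probe set on each side gave 10, of which 8 were tested, and limma called 0 at each time, with 0, 1, 1 and 0 at an unadjusted p under 0.05. The 8 tested lay between 478.8 kb (Tead1) and 2734.8 kb (Plekha7) from Pth, so no gene closer than that was tested. The nearest on one side, the clock factor Arntl at 71.5 kb, was below the filter, at 13.7 ± 3.04 in NmU and 19.6 ± 3.61 in PBS at 12 h (SD, n = 4 each), and so was Sox6. Copb1, a coat protein of Golgi vesicles, read 288 in NmU and 324.5 in PBS at 12 h, a log2 difference of -0.18 ± 0.13 (SE). Psma1, a proteasome subunit next to it, differed by -0.06 ± 0.10. Tead1, a factor of the Hippo pathway, had the lowest value, -1.13 ± 0.58, with an adjusted p of 0.479 by limma. Dkk3, Ctr9, Plekha7 and 1110004F10Rik differed by between -0.17 and 0.04. Eif4g2, a translation factor, differed by 0.54 at 3 h (adjusted p = 0.0502) and by 0.17 ± 0.16 at 12 h.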

How the data were processed

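Each deposited value was the linear intensity of a probe set on a 1-colour array. Arrays had been scaled before deposit, since array means without 2% of probe sets at either end lay between 150.09 and 150.11. The summary method is not given in the sources used here. Changes are relative to total signal. Array medians ran between 34.4 and 43.3, and 0 deposited columns were left unused.

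Of 12488 probe sets, 66 were controls. The platform annotation gave 10833 of the others 1 symbol, 396 several and 1193 none, and Entrez numbers of 10817 matched RefSeq, with 0 symbols changed. Intensities below 5.8, the 20th percentile, were raised to it, and log2 was taken. A probe set was kept where a group mean exceeded 20.2, the 40th percentile, which left 7930 for 5905 genes. The brightest probe set stood for a gene.

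All 31 arrays entered 1 limma model (version 3.58.1, R 4.3.3) of 8 group means. P-values were two-sided and adjusted by Benjamini-Hochberg over all 7930 probe sets, with calls at 0.05. The fit was tested on simulated data. The text could name Pth, the 10 named genes most like it, every called gene and up to 4 others with the lowest p of each list, 5 measured neighbours on each side, and Il5. Any further gene was named after its values were seen. The members and lists were chosen with earlier results of these data known. Other floors, filters, scalings and fits were tried.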

Additional observations from a re-analysis of the deposited data

Results flagged for a closer look

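No Pth value stood apart in the 7 groups of 4 arrays, and NmU at 3 h, with 3 arrays, was not checked. Over 30 named genes in these groups, 12 of 210 sets of 4 values (5.71%) held an array whose gap to the nearest of the others was above Dixon's 95% limit for 4 values. Chance gives about 1 in 20.

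Among the probe sets most like Pth and Il5, Csn1s1 read 1770.4 on replicate 4 of NmU at 6 h, with the others between 2277.9 and 2378.5. Xcl1 read 6.7 on replicate 1 of PBS at 6 h (others 17.4 to 19.4), and Il5 read 63.5 on the same array (others 46.9 to 49.0).

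Replicate 4 of NmU at 6 h held 4 of the 12. Besides Csn1s1, it had Fos at 336.7 (others 28.5 to 33.6), Nr4a1 at 210.9 (others 61.7 to 74.6) and Prkacb at 587.4 (others 440.2 to 455.2). Pth read 636.1 there, inside the range of the others, 603.3 to 773.9.

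In NmU at 12 h, Furin read 354.4 on replicate 1 (others 441.4 to 446.9) and Nr4a1 78.6 on replicate 4 (others 44.1 to 48.2). In PBS, Furin read 394.9 on replicate 1 at 0.8 h (others 329.0 to 334.5), Tnfsf11 95.4 on replicate 4 at 3 h (others 38.6 to 46.2), Eif4g2 116.0 on replicate 1 at 12 h (others 95.2 to 98.3) and Psma1 418.9 on replicate 3 at 0.8 h (others 383.0 to 386.7).

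The NmU effect differed between the 4 times by limma's moderated F test for 7 called genes of the pathway lists. The adjusted p was 2.91e-05 for Crem, 6.18e-04 for Fos, 6.77e-04 for Furin, 0.00937 for Nr4a1, 0.012 for Prkacb, 0.0143 for Slc9a3r1 and 0.0308 for Il6. By the same test it was 0.138 for Tnfsf11, 0.346 for Gata3 and 0.464 for Rxra, which had been called at 3 h. The share of all probe sets that this test calls is not given. Being called at some time also favours a difference between times, so nothing is read from the count. For Pth no p is given, since its change between times was part of how it was chosen.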

How the results depend on the processing

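Pth was higher in NmU under every alternative tried. Its log2 difference at 12 h was 1.58 as reported, 1.55 with a pseudocount of 16 in place of the floor, 1.64 once arrays had a common median and 1.59 after quantile normalization. Leaving out 1 array at a time, it ran between 0.09 and 0.24 at 0.8 h, 0.27 and 0.46 at 3 h, 0.48 and 0.60 at 6 h, and 1.55 and 1.62 at 12 h. With only the 2 groups of a time fitted, limma called 171 probe sets at 3 h in place of 806, 164 at 6 h in place of 387 and 56 at 12 h in place of 100, and 0 list genes at 12 h in place of 2 (Furin and Il6). This fit has fewer arrays. Probe sets at r of 0.9 or more numbered 59 with no filter, where more were compared, and 106 over the 7 groups without NmU at 12 h, in place of 22, and 3 of the 22 were among the 106. Leaving out 1 array gave 15 to 26, the lowest without replicate 4 of NmU at 6 h, when 14 of the 22 were kept. The fewest of the 22 were kept without replicate 4 of PBS at 3 h, 13 among the 19 found. The calls ran between 55 and 81 at 0.8 h, 564 and 918 at 3 h, 239 and 501 at 6 h, and 66 and 125 at 12 h. They fell by more than 1.5 times to 247 without replicate 1 of PBS at 6 h, to 253 and 239 without replicates 1 and 3 of NmU at 6 h, and to 66 without replicate 3 of NmU at 12 h. List genes called were 4 to 4, 8 to 11, 4 to 5 and 2 to 2. Eif4g2 at 3 h was called in 7 of the 31 fits that left out 1 array, and with another floor, a pseudocount, quantile normalization or the replicate block. Leaving out replicate 4 of NmU at 6 h, Fos at 3 h (adjusted p = 7.63e-05) and Rxra at 6 h (0.0354) were called too. So were Fos at 6 h without replicate 2 of NmU at 6 h (0.0475), Nr4a2 at 3 h without replicate 2 of NmU at 3 h (0.0292) and Igf2 at 3 h without replicate 4 of PBS at 3 h (0.0227). Of the 474 values recomputed, 0 reversed. The Pth difference at 0.8 h moved by more than 1.5 times without replicate 1 of PBS (0.09) or replicate 2 of NmU (0.12) at that time.

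Whether the replicate numbers pair the arrays was not settled. Of 15 pairs of 1 number, 5 correlated above 0.1, and in 7 the PBS array of the same number was the best match among the 4 of that time. With the replicate block the Pth difference was 0.27 at 3 h, where the array without a partner adds nothing, and 0.19, 0.54 and 1.58 at 0.8, 6 and 12 h. It called 67, 826, 438 and 91 probe sets at 0.8, 3, 6 and 12 h, and 4, 12, 4 and 2 list genes. At 3 h it added Arrb1 (-0.99, adjusted p = 0.0403), Igf2 (-0.62, 0.0336) and Eif4g2 (0.67, 0.0408).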
